A study of Mus musculus with 18 samples.

Results

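Slc2a4 encodes GLUT4, the glucose transporter that insulin moves from inside the cell to the surface of fat and muscle cells. It was described here across all groups of the study as 1 of 27473 gene models in the deposited count table. The table names gene models by UCSC identifiers only, so Slc2a4 was found by its position: it is the gene model with the most exon bases inside a window on chromosome 11 that covers the locus. That gene model is uc007jsy.1 on mouse build mm9, chromosome 11, from 69755788 to 69761692 on the minus strand, with 11 exons and an exon length of 3092 bases. It was the only gene model with exon bases in the window. The lengths of 8 of its exons and 8 of its 10 introns were those of the 11-exon Slc2a4 transcript in the GENCODE M21 annotation, which is of another build (GRCm38) and was used for lengths only. Slc2a4 did not pass the test in any of the 6 planned comparisons. Its message level stood lowest in LPS-treated cells, at 0.799 times the untreated level in control cells and 0.87 times in knockdown cells. The fits for the Irf3 overexpression group and for the Irf3 hairpin without LPS gave 0.896 and 0.979 of the control, with intervals that hold no change. The level of Irf3 itself was not measured here. These values depended on single libraries. Without replicate 1 of the untreated luciferase hairpin cells, the log2 fold change was -0.13 for LPS in control cells and 0.17 for knockdown alone.

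GLUT4 is one of a family of facilitative glucose transporters, and it is the member that adipocytes hold in storage vesicles until insulin signals through its receptor and the kinase AKT. In adipocytes the amount of GLUT4 is set in part by transcription, and fat tissue in obesity and insulin resistance is known for a low Slc2a4 message level. IRF3 is a transcription factor that Toll-like receptor 4 and nucleic acid sensors activate to switch on type I interferon genes. The comparisons ask how the Slc2a4 message stood in adipocytes of an Irf3 overexpression group, and in adipocytes with a hairpin against Irf3 without and with an inflammatory stimulus.

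The 18 libraries came from differentiated 3T3-L1 adipocytes at passage 15, a mouse fibroblast line that can be turned into fat cells, transduced with lentivirus as mature adipocytes for 6 days. In one arm, an Irf3 overexpression group (Irf3_2D; the meaning of 2D is not stated) was set against cells with an EGFP vector. In the other arm, cells carried a hairpin that targets Irf3 (shIrf3) or, as the control, the reporter enzyme luciferase (shLuc). Both kinds of cells were studied untreated and with lipopolysaccharide (LPS), the bacterial ligand of Toll-like receptor 4. Exposure to LPS lasted another 6 days, stated for the knockdown cells only and taken here as the same for shLuc cells with LPS. Whether untreated cells were kept as long is not stated, so LPS cannot be told apart from days in culture. Each of the 6 groups had 3 libraries; whether these were separate cultures is not stated, and every p-value here reflects the spread between libraries, which may be technical. Promoter, number of hairpins and clonality of the cells were not given in the sources used here. Because identifiers could not be paired with symbols, the level of Irf3 itself, adipocyte markers and the other genes of insulin-stimulated glucose uptake were not analysed here.

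Total counts ran from 22143302 to 34368259 per library. The mitochondrial share of counts (chromosome M) was 14.2% in shLuc replicate 1 and at most 7.17% in the other libraries. The replicates of shLuc differed most from each other, at up to 349.9 chi-square units per degree of freedom between a pair, followed by Irf3_2D, where both pairs that include replicate 2 gave 91.7 and 112. Fold changes of Slc2a4 that rest on shLuc replicate 1 or Irf3_2D replicate 2, group levels and neighbouring gene models are therefore given with and without them.

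Slc2a4 was a well-expressed message in every library, and its level was lowest in the LPS-treated groups and highest in the EGFP cells. Between 1394 and 2880 reads were counted for it per library, 37356 in all. Scaled by exon length and library size to TPM, a unit that lets genes be compared with each other, Slc2a4 stood at 52.2 to 101, with a median of 65.8. That level placed it between rank 1707 and rank 3526 among the 17305 to 18798 gene models with at least 1 count in a library. The counting error of a single library was between 1.86% and 2.68%. Intervals from counting cover that error only.

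The Slc2a4 level in each library was next scaled to CPM, read counts relative to library size, with trimmed-mean (TMM) factors over all 18 libraries. In EGFP the replicates stood at 100.4, 81.9 and 127 CPM, a mean of 103 ± 22.8 (SD, n = 3). In Irf3_2D they stood at 77.9, 103 and 97.2 CPM, a mean of 92.7 ± 13.2, or 87.6 without replicate 2. All 3 Irf3_2D libraries lay below EGFP replicate 3, and 2 of them lay above EGFP replicate 2.

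In shLuc the replicates stood at 89.5, 68.0 and 60.7 CPM, a mean of 72.7 ± 15.0 (SD, n = 3), or 64.3 without replicate 1. In shIrf3 they stood at 64.9, 74.0 and 77.3 CPM, a mean of 72.1 ± 6.40. The 3 shIrf3 libraries fell inside the range of the shLuc libraries, whose highest value was that of replicate 1, the library with the large mitochondrial share.

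With LPS the group means were lower for both hairpins. In shLuc with LPS the replicates stood at 53.3, 60.5 and 60.1 CPM, a mean of 57.9 ± 4.03 (SD, n = 3). In shIrf3 with LPS the replicates stood at 57.1, 68.5 and 56.6 CPM, a mean of 60.7 ± 6.74, a spread close to that of shIrf3 without LPS. Every shLuc library with LPS lay below every shLuc library without it, by a margin of 60.5 against 60.7 CPM at the closest, whereas shIrf3 replicate 2 with LPS lay above shIrf3 replicate 1 without it.

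**Figure D1:**
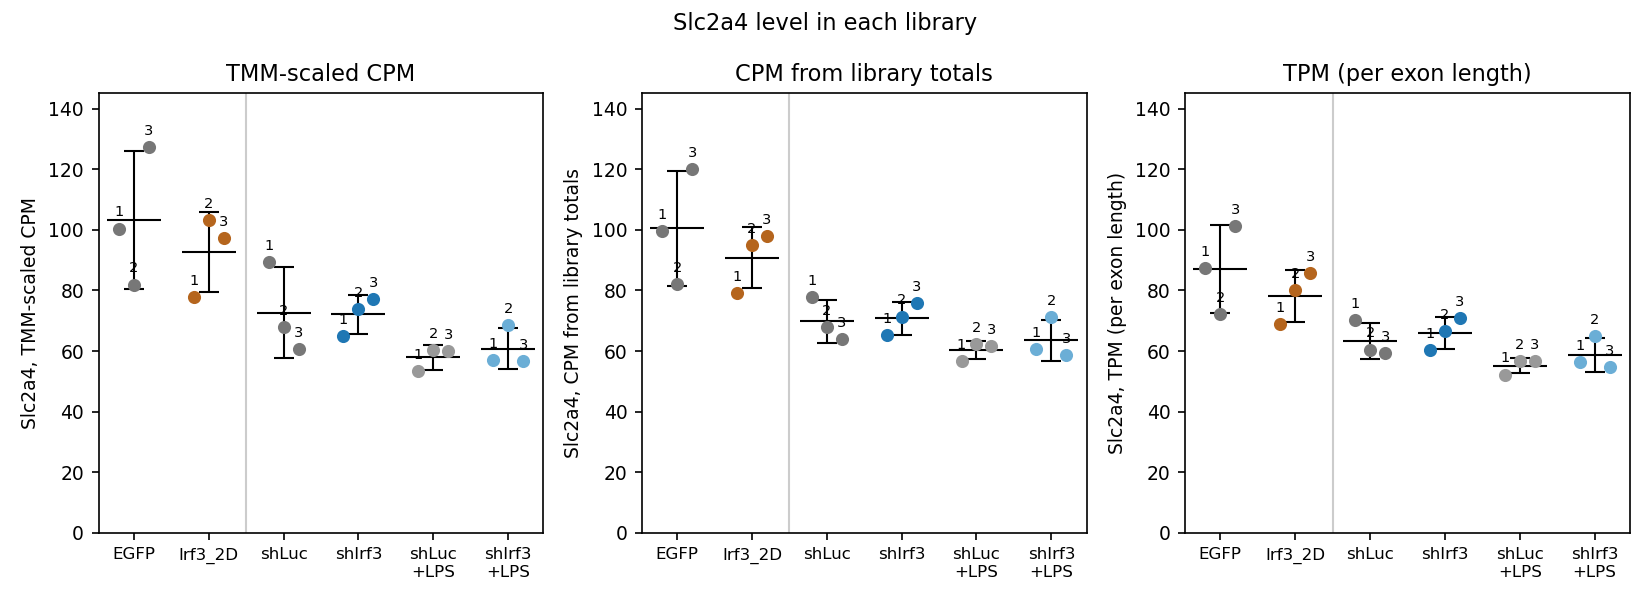
Slc2a4 level in each of the 18 libraries on 3 scales: CPM with TMM factors, CPM from library totals and TPM (y axes, linear from 0). Points are libraries with their replicate number, wide bars are group means, whiskers are 1 SD (n = 3), and the grey line parts the overexpression arm from the hairpin arm. On the TMM scale the hairpin arm spans 53.3 to 89.5 CPM and the overexpression arm 77.9 to 127 CPM.

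In order of mean CPM the groups ran EGFP, Irf3_2D, shLuc, shIrf3, shIrf3 with LPS and shLuc with LPS, and the last stood at 56.1% of the first. On this scale, with every library kept, each group overlapped in range with the next one in the order. By TPM shIrf3 (66.0 ± 5.30 TPM; SD, n = 3) stood above shLuc (63.3 ± 6.03 TPM), and so it did by CPM from library totals and by TMM-scaled CPM without shLuc replicate 1. In these last 2 settings Irf3_2D no longer overlapped the group below it: its lowest library stood at 79.2 CPM from library totals against 75.9 for the highest of shIrf3, and at 77.9 TMM-scaled CPM against 77.3. Without Irf3_2D replicate 2 the order and the overlaps of TMM-scaled CPM were as with it. The control vectors of the arms, EGFP and shLuc, differed in mean by 103 against 72.7 CPM. Their ranges overlapped on the TMM scale through shLuc replicate 1 alone, and did not overlap without it (from 81.9 CPM in EGFP, up to 68.0 in shLuc), by library totals (82.1 against 77.7 CPM) or by TPM (72.3 against 70.3). Vector and arm cannot be told apart, and the arms were not tested against each other.

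On the TMM scale the spread between replicates was 6.97% to 22.1% of the mean within groups. EGFP and shLuc had the widest spreads on this scale, at 22.1% and 20.6%, and shLuc with LPS had the narrowest, at 6.97%. The wide spread of shLuc depended on the scale. By TPM shLuc stood at 63.3 ± 6.03 and Irf3_2D at 78.2 ± 8.64 (SD, n = 3), a wider spread in Irf3_2D than in shLuc. In shLuc replicate 1 stood at 89.5 TMM-scaled CPM and the other libraries at 68.0 and 60.7, against 77.7, 67.8 and 64.0 CPM from library totals. In the model of the hairpin arm the biological coefficient of variation of Slc2a4 was 0.112, above the median of 0.087 over the gene models tested, and in the overexpression arm it was 0.167 against 0.16.

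Overexpression of Irf3 was compared with the EGFP vector. Slc2a4 differed by -0.16 ± 0.18 (SE) on the log2 scale, with a 95% interval from -0.56 to 0.24, which is 0.679 to 1.18 times the EGFP level. It did not pass the test (edgeR quasi-likelihood test over 13931 gene models, Benjamini-Hochberg adjusted p = 0.882). In this comparison 1.45% of the gene models tested were called. In 3 of the 9 pairs of an Irf3_2D and an EGFP library the former was higher (two-sided exact permutation test over the libraries, p = 0.5, where 3 against 3 cannot go below 0.1). Without Irf3_2D replicate 2 the log2 fold change was -0.25 (edgeR adjusted p = 0.477), without EGFP replicate 2 it was -0.31, without Irf3_2D replicate 1 it was -0.05 and without EGFP replicate 3 it was 0.01.

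Knockdown of Irf3 without LPS was compared with the luciferase hairpin, from a fit of the 12 libraries of this arm. Slc2a4 differed by -0.03 ± 0.13 (SE) on the log2 scale (edgeR adjusted p = 0.918 over 14970 gene models). The 95% interval ran from 0.809 to 1.19 times the shLuc level. Of the gene models tested, 8.56% were called, and 88.5% had a fold change of larger size than Slc2a4. In 5 of 9 pairs the shIrf3 library was the higher one, and the two-sided exact permutation test gave p = 1. Without shLuc replicate 3 the value was -0.14. Its sign changed without shLuc replicate 1 (0.17, edgeR adjusted p = 0.208), without shIrf3 replicate 1 (0.03) and with library totals as the only scaling (0.02).

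Under LPS the knockdown cells stood 0.09 ± 0.13 (SE) above shLuc with LPS on the log2 scale, with a 95% interval from 0.88 to 1.29 times the control level (edgeR adjusted p = 0.754; two-sided exact permutation test, p = 0.6). Here 8.2% of the gene models tested were called. The shIrf3 library with LPS was the higher one in 5 of 9 pairs, and without its replicate 2 the log2 fold change was -0.001.

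LPS in the luciferase control cells gave the largest difference of Slc2a4 in a planned comparison. The group means were 57.9 against 72.7 CPM, and the fitted log2 fold change was -0.32 ± 0.13 (SE), or 0.799 times the untreated level with a 95% interval from 0.659 to 0.968. The unadjusted edgeR p was 0.0255 and the p adjusted over 14970 gene models was 0.157, which did not pass the threshold of 0.05. In 0 of 9 pairs was the LPS-treated library the higher one, and the two-sided exact permutation test gave 0.1, the smallest p that 3 against 3 allows. Of the gene models tested, 8.72% were called and 9.82% had a fold change as low or lower.

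In bulk RNA, fewer adipocytes and less Slc2a4 message per adipocyte cannot be told apart. The size of this difference changed most with shLuc replicate 1, the library with 14.2% mitochondrial counts. Without it the log2 fold change was -0.13 (edgeR adjusted p = 0.375), and without shLuc replicate 3 it was -0.44 and was called (edgeR adjusted p = 0.0407). With library totals as the only scaling it was -0.21, on which scale shLuc replicate 1 stood at 77.7 CPM and the other shLuc libraries at 67.8 and 64.0. With the chromosome M gene models left out before scaling it was -0.32. What sets shLuc replicate 1 apart was not tested.

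In the knockdown cells Slc2a4 differed by -0.20 ± 0.13 (SE) on the log2 scale with LPS, with a 95% interval from 0.718 to 1.05 times the untreated level (edgeR adjusted p = 0.405). Of the gene models tested, 8.01% were called. The LPS-treated library was the higher one in 1 of 9 pairs (two-sided exact permutation test, p = 0.2). Neither group of this comparison includes shLuc replicate 1, and fitted from its own 6 libraries the value was -0.20 ± 0.08 (SE, edgeR adjusted p = 0.121).

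Whether shIrf3 altered the LPS response of Slc2a4 was tested by the interaction term. The response was higher in knockdown by 0.12 ± 0.18 (SE) on the log2 scale, with a 95% interval from -0.27 to 0.52 (edgeR adjusted p = 0.997). The interval is wide enough to hold both no difference and one as large as the LPS response of shLuc itself. Without shLuc replicate 1 the difference was -0.07. In this test edgeR called 0% of the gene models, DESeq2 called 15 gene models and limma-voom 0. Of the 14970 gene models tested, 848 had an unadjusted edgeR p under 0.05, where no difference at all would leave a share of 0.05.

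**Figure D2:**
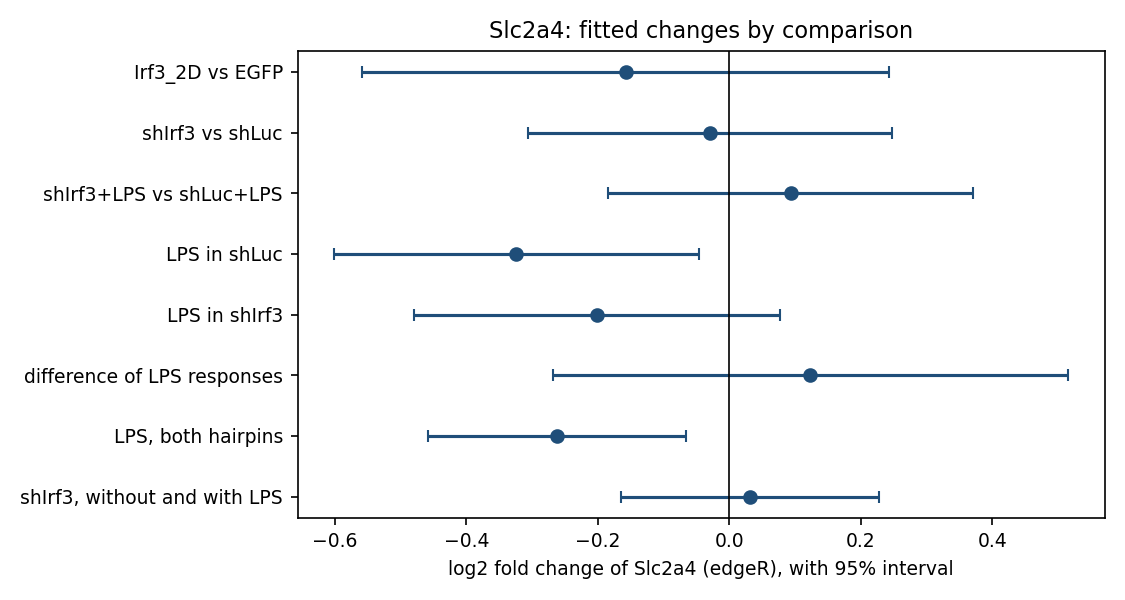
Fitted log2 fold change of Slc2a4 (x axis) in 8 comparisons (rows), as points with 95% intervals from edgeR; the last 2 rows average over the groups of the hairpin arm. The intervals exclude 0 for LPS in shLuc (-0.60 to -0.05) and for LPS over both hairpins (-0.46 to -0.07) before adjustment over gene models, and hold 0 in the other 6 rows.

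Since both LPS comparisons pointed the same way, the LPS response was also averaged over the hairpins, a contrast added after the data were seen. The mean log2 fold change of Slc2a4 was -0.26 ± 0.09 (SE), or 0.834 times the untreated level with a 95% interval from 0.728 to 0.955 (edgeR unadjusted p = 0.0127, adjusted p = 0.0663). With LPS labels exchanged within each hairpin, the two-sided exact permutation test over 400 relabellings gave p = 0.02, where the smallest possible is 0.005. In this contrast 17% of the gene models tested were called. The edgeR value did not pass the threshold, whereas DESeq2 placed it past (log2 fold change -0.27, DESeq2 adjusted p = 0.0257). It also passed without shLuc replicate 3 (-0.32, edgeR adjusted p = 0.0164) or shIrf3 replicate 2 with LPS (-0.31, edgeR adjusted p = 0.039), and without shLuc replicate 1 it was -0.17 (edgeR adjusted p = 0.0528).

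The knockdown effect averaged over cells without and with LPS, likewise added, was 0.03 ± 0.09 (SE) on the log2 scale (edgeR adjusted p = 0.861). Its 95% interval, the narrowest of those given here for Irf3, ran from 0.892 to 1.17 times the control level. The exact permutation test within LPS state, two-sided, gave p = 0.725, and 19.5% of the gene models tested were called in this contrast. Without shLuc replicate 1 the value was 0.13 ± 0.06 (SE, edgeR unadjusted p = 0.0381, adjusted p = 0.108), with a smaller standard error than with that library. Without shLuc replicate 3 or shIrf3 replicate 2 with LPS the value was -0.03 and -0.02.

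**Figure D3:**
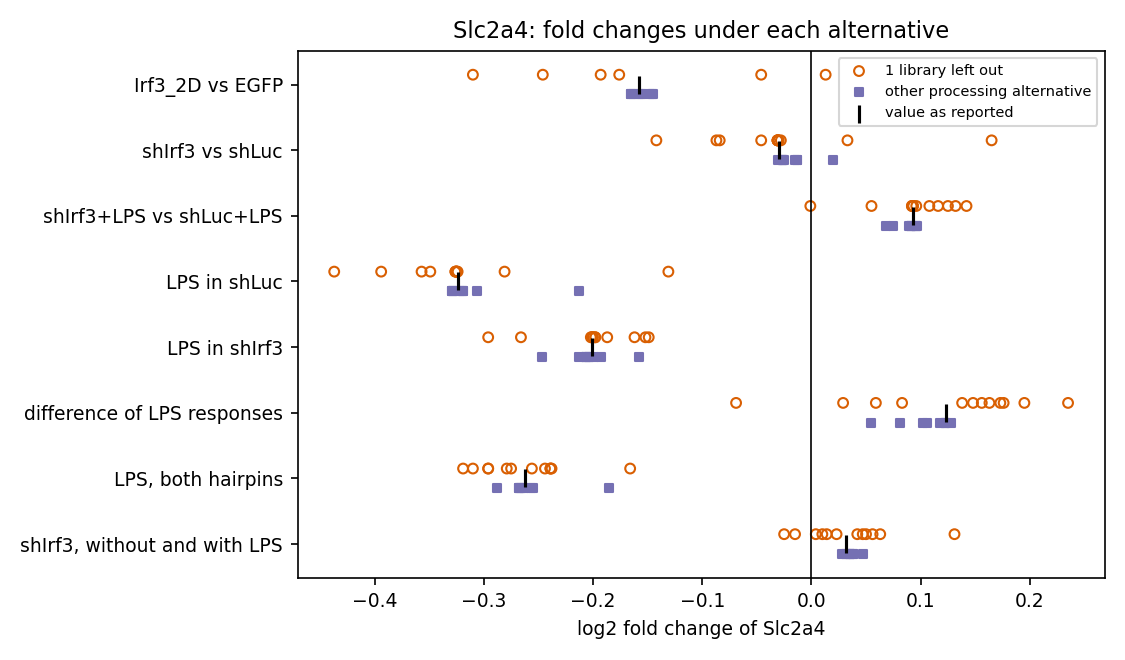
Log2 fold change of Slc2a4 (x axis) in the same 8 comparisons (rows): the black tick is the value reported, circles are fits with 1 library left out, and squares are other processing alternatives. All values for LPS lie below 0, from -0.44 to -0.13 in shLuc and from -0.30 to -0.15 in shIrf3, while those for knockdown and overexpression of Irf3 lie on both sides of 0.

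The genome around Slc2a4 was examined for changes shared with its neighbours. On mm9, 17 other gene models lie within 100000 bases of Slc2a4, and 14 of them had enough counts to be tested. None of the 17 overlapped it: the nearest, 687 bases beyond the end of the last exon, lies on the plus strand and averaged 2.14 CPM, and the nearest on the other side lies 16589 bases away. Strand was not marked in these libraries, but no overlapping gene model was there to share reads with Slc2a4. Among the neighbours, 3 have exons on both strands and some overlap each other. With all libraries, the highest neighbour for LPS in shLuc averaged 0.692 CPM and the highest for LPS in shIrf3 averaged 1 CPM.

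For LPS in shLuc the 14 neighbours had a median log2 fold change of -0.06 and a range from -0.30 to 0.43, and 0 were called, against 8.72% of all gene models. The lowest of them, a gene model with exons on both strands, stood at -0.30. Slc2a4 stood at -0.32 with a standard error of its own of 0.13, and these gene models were not tested against each other. Without shLuc replicate 1 the neighbours ran from -0.25 to 0.53, 2 of them lay below the -0.13 of Slc2a4, and 1 was called against 11.5% of all gene models. For LPS in shIrf3 they ran from -0.40 to 0.49 with a median of -0.08, and 4 of the 14 lay below the -0.20 of Slc2a4. Of the 14, 0 were called, against 8.01% of all gene models, or 2 against 12.3% without shLuc replicate 1.

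For knockdown, 1 of the 14 was called without LPS and 1 under LPS, a share near the 8.56% and 8.2% of all gene models. Without shLuc replicate 1 there were 4 and 3, against 18.1% and 13.5%. The one called in both lies at 69832107 to 69859033 on chromosome 11, 70415 bases from Slc2a4. Its log2 fold change was 0.63 without LPS (edgeR adjusted p = 0.0045; 0.81 without shLuc replicate 1) and 0.43 under LPS (edgeR adjusted p = 0.033); it was singled out after its values were seen. The call without LPS held in all 22 alternatives, and the call under LPS ended in 8 of 22, among them each fit that left out 1 of the 6 LPS-treated libraries, with adjusted p of up to 0.168. For overexpression 0 of the 14 were called, against 1.45% of all gene models, or 1 against 7.18% without Irf3_2D replicate 2.

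**Figure D4:**
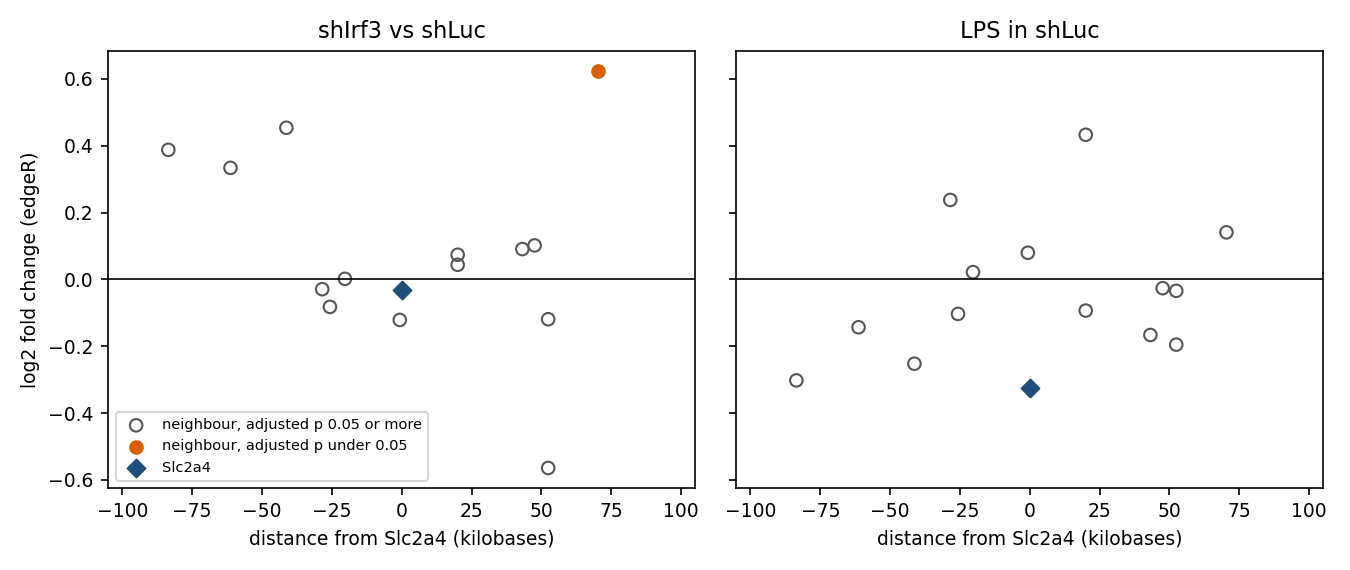
Log2 fold change (y axis) of the 14 tested gene models within 100000 bases of Slc2a4, by distance from it (x axis, kilobases), for knockdown without LPS and for LPS in shLuc; filled circles have an edgeR adjusted p under 0.05 and the diamond is Slc2a4. One neighbour stands at 0.63 for knockdown; for LPS in shLuc, with all libraries, Slc2a4 at -0.32 lies beside the lowest neighbour at -0.30, and without shLuc replicate 1 it stood at -0.13 with 2 neighbours below it.

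The gene models whose pattern was most like that of Slc2a4 were ranked by Pearson's r of log2 CPM over the 12 libraries of the hairpin arm, among 8959 with a mean of at least 5 CPM and exons on 1 strand. The libraries share their groups and scaling, so r is a description only. The median r was 0.06, and 90% of the values lay between -0.60 and 0.65. The most alike was uc009gez.1 on chromosome 7 (31346885 to 31348203, 4 exons), with r = 0.93. It went from 26.9 ± 3.41 CPM in shLuc to 21.5 ± 0.501 in shLuc with LPS and from 25.0 ± 1.56 in shIrf3 to 21.9 ± 2.49 in shIrf3 with LPS (SD, n = 3). Next came uc009tpu.2 on chromosome X (72627738 to 72642497, 5 exons) with r = 0.92, at 93.6 ± 8.42 CPM in shLuc and 80.2 ± 4.84 in shLuc with LPS.

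Over the 6 libraries of the overexpression arm, which the ranking did not use, r with Slc2a4 was 0.46 for uc009gez.1 and 0.56 for uc009tpu.2. The most opposite patterns were those of uc009mir.1 on chromosome 8 (82163575 to 82201654, 21 exons) and uc007rzh.2 on chromosome 13 (120251566 to 120274924, 14 exons), both with r = -0.89. In the other arm their r was -0.97 and -0.48. The levels of uc009mir.1 moved little, from 91.9 ± 4.80 CPM in shLuc to 101 ± 4.76 in shLuc with LPS, so a strong r here can come with a small change. Without shLuc replicate 1, over 11 libraries, r was 0.87 for uc009gez.1, 0.84 for uc009tpu.2, -0.87 for uc009mir.1 and -0.83 for uc007rzh.2, and the first pair ranked 5 and 20 among the most alike.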

How the data were processed

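The 18 libraries were put in 6 groups of 3 by their titles. Ribosomal RNA depletion started from 70 ng of total RNA, and the library kit does not mark strand, per the labels' protocols. Tools named in the submitters' processing notes are featureCounts 1.4.6, by which the authors made the deposited raw counts per gene model, SAMtools 0.1.19, Picard 2.2.4, edgeR, TopHat2 2.0.14 and bcl2fastq 2.17.1.14, with build mm9; their settings were not stated. Of 27473 identifiers 0 occurred in the name tables used here, so the gene lists and markers written down by symbol were not applied.

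The edgeR 4.0.16 quasi-likelihood F test (robust, R 4.3.3) was run on the counts after filterByExpr and TMM scaling, over all gene models passing, with Benjamini-Hochberg adjustment and calls at 0.05. The fits used 6 libraries for overexpression and 12 for the hairpins. The method was also run on simulated counts that held no outlying library, and no result given here rests on that run. Standard errors are the size of the log2 fold change over the square root of F. TPM used the exon lengths in the table, and log2 CPM a prior count of 2. Alternatives included limma-voom (limma 3.58.1), DESeq2 1.42.0, other scalings and filters, a replicate block, other sets of libraries and each library left out. Named were Slc2a4, the 2 gene models most and the 2 least like it, and neighbours by position. Slc2a4 and all lists were chosen with earlier results of these data known.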

Additional observations from a re-analysis of the deposited data

How the results depend on the processing

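For Slc2a4, 15 alternatives were run for overexpression, 22 for each pairwise comparison of the hairpin arm, and 21 for the interaction and for each averaged contrast. With 1 library left out, log2 fold changes ran from -0.31 to 0.013 for overexpression, -0.14 to 0.17 for knockdown, -0.001 to 0.14 for knockdown under LPS, -0.44 to -0.13 for LPS in shLuc, -0.30 to -0.15 for LPS in shIrf3, -0.069 to 0.235 for their difference, -0.32 to -0.17 for LPS over both hairpins and -0.025 to 0.131 for knockdown averaged over LPS states. Library totals turned knockdown to 0.02, and DESeq2 placed LPS over both hairpins past the threshold at -0.27 (DESeq2 adjusted p = 0.0257); the causes were not tested. The pairwise LPS comparisons kept their direction in each of the 22 alternatives.

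The labels number replicates alike in all groups, but same-numbered libraries did not deviate together (r from -0.19 to 0.23 for overexpression and from -0.03 to 0.09 in the hairpin arm). With the replicate block the log2 fold changes were -0.15 for overexpression, -0.03 for knockdown, -0.32 for LPS in shLuc and -0.20 for LPS in shIrf3, and no call on Slc2a4 changed. Counts of called gene models also depended on the alternative. Over the alternatives they ran from 5 to 1021 for overexpression (202 as reported; lowest without EGFP replicate 3, highest without Irf3_2D replicate 2), 386 to 2744 for knockdown (1281), 378 to 2848 for knockdown under LPS (1228), 668 to 2132 for LPS in shLuc (1305), 621 to 2890 for LPS in shIrf3 (1199), 0 to 16 for the interaction (0), 1520 to 3424 for LPS over both hairpins (2546) and 1438 to 4162 for knockdown averaged (2916). Depth limits little here, as the counting error of Slc2a4 was at most 2.68% per library.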
